A study of Mus musculus with 17 samples.

Results

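Class III POU factors are transcription factors that bind DNA through a POU-specific domain joined to a homeodomain, and Gbx2 is a homeobox transcription factor of the gastrulation brain homeobox family. The 4 genes considered were Pou3f1, Pou3f2, Pou3f3 and Gbx2, taken by symbol from the platform annotation of the array. Pou3f1, Pou3f3 and Gbx2 had 1 probe each among 18256 named genes, and Pou3f2 had none, so 3 of the 4 could be described. Pou3f1 and Gbx2 were selected on their log2 differences between the later arrays and those up to 45 min, which lay among the largest falls of the series, and their levels are therefore a description with no test. Pou3f3 was taken as a family member and not for its own change, and its changes are given with the test.

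Total RNA of hippocampal neural precursor cells, cultured from adult mice, was measured on 17 Illumina bead arrays. The cells of every array had been grown on a poly-D-lysine and laminin coating in Neurobasal medium with B27, GlutaMAX, bFGF and EGF. The array at 0 min was the proliferating culture with both growth factors present, and the other 16 were harvested at 15 to 720 min after both were withdrawn to start differentiation. There was 1 array per time, in windows of 0 to 45 min (4 arrays), 60 to 120 min (3 arrays), 150 to 240 min (3 arrays), 300 to 420 min (3 arrays) and 480 to 720 min (4 arrays). The labels name no strain, age or sex of the animals, and every sample after 0 min lacked both growth factors, so time in culture and withdrawal cannot be told apart.

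Class III POU factors act in progenitors and in maturing neural and glial cells. They often bind beside a SOX protein, and the enhancer of the nestin gene is a known site of such joint binding. Pou3f1, also called Oct6 or SCIP, is best known for timing the myelination programme of Schwann cells. Pou3f3, also called Brn1, and Pou3f2, also called Brn2, overlap in the production and migration of cortical neurons. Gbx2 sets the position of the midbrain-hindbrain boundary by mutual repression with Otx2, and FGF signalling induces it in the embryonic neural plate.

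Promoter windows from RefSeq (build GRCm38.p6) are printed for Gbx2 and Pou3f3. They show the stretch of 250 bases before to 50 bases after the start site. The set of windows used held none for Pou3f1, so its promoter was not searched for motifs. Letters in capitals mark a match to 1 of 6 motifs searched on both strands, namely the octamer ATGCAAAT bound by POU factors, the ETS core CCGGAA, the CRE TGACGTCA, the AP-1 site TGANTCA, the E-box CACGTG and the TATA box TATAAA. Both sequences run 5′ to 3′ on the strand of the gene, Gbx2 on the minus strand at chr1:89931127-89931426 and Pou3f3 on the plus strand at chr1:42695518-42695817.
Gbx2: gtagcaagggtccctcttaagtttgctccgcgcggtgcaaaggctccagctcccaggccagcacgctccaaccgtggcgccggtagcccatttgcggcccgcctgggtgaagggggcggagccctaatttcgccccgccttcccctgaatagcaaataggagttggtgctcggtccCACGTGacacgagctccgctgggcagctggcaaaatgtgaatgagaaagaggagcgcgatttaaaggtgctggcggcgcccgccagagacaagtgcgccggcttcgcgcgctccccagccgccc
Pou3f3: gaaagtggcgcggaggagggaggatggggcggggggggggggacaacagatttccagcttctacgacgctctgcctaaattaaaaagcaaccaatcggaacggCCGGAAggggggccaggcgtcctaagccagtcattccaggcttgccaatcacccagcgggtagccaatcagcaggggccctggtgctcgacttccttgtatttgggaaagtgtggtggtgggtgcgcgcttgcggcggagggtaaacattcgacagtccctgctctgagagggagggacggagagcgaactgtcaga
The Gbx2 window held the E-box, which starts 74 bases before the start site and is present in 7.15% of 32851 promoter windows. The Pou3f3 window held the ETS core, which starts 147 bases before the start site and is present in 14.9% of the windows. The octamer, present in 1.74% of the windows, was not in either of these stretches, nor were the CRE, AP-1 and TATA letters. The 2 matches did not overlap another motif searched. The share of G and C was 64.7% in the Gbx2 window and 60.3% in the Pou3f3 window, against a median of 52.7% over all windows. A match is a match of letters and not a measured site.

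Values are log2 signals as deposited, on a scale that ran from 5.14 to 15.47. The 17 arrays had medians of 6.40 to 6.42 and correlated with each other at 0.972 or more over all probes. The tests covered the 9940 features whose mean reached 6.41, which is the middle value over all probes. Pou3f1 (mean 9.29), Gbx2 (8.25) and Pou3f3 (6.44) all passed this filter. Of the neural stem and progenitor markers, 12 of 13 were on the array and 9 of these were above the filter, among them Nes (mean 11.47) and Sox2 (9.66). All 7 microglia and macrophage markers on the array and 7 of 9 neuronal ones, Dcx and Tubb3 included, lay below it. The other 2 neuronal markers, Map2 (mean 12.77) and Prox1 (8.92), lay above it. Neighbouring times stand in for replicates, so a p-value here measures the spread within windows of 1 time series and says nothing of separate cultures.

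Pou3f1 started high and lost most of its signal between 45 and 120 min. It was at 11.45, 11.11, 11.11 and 11.29 at 0, 15, 30 and 45 min. It was then at 10.47, 9.49 and 8.39 at 60, 90 and 120 min. At 150, 180 and 240 min it was at 8.21, 8.08 and 8.19. The 4 arrays up to 45 min were alike, and every later array lay below all of them. The signal was at 7.64, 8.64 and 8.59 at 300, 360 and 420 min. It was at 8.54, 8.58, 8.80 and 9.31 at 480, 540, 600 and 720 min. The lowest array was therefore at 300 min, 12.1-fold below the mean of 0 to 45 min, and the array at 720 min was higher than all the others from 120 min on, yet 3.81-fold below that mean.

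In a bulk measurement, fewer cells of a type and less RNA per cell cannot be told apart. Of all 9940 features, 7.42%, 14.2%, 21.2% and 22.5% had every array of a later window below every array of 0 to 45 min, in order of time, a background from which nothing is read for Pou3f1 and Gbx2 because the choice of these genes used that contrast.

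**Figure D1:**
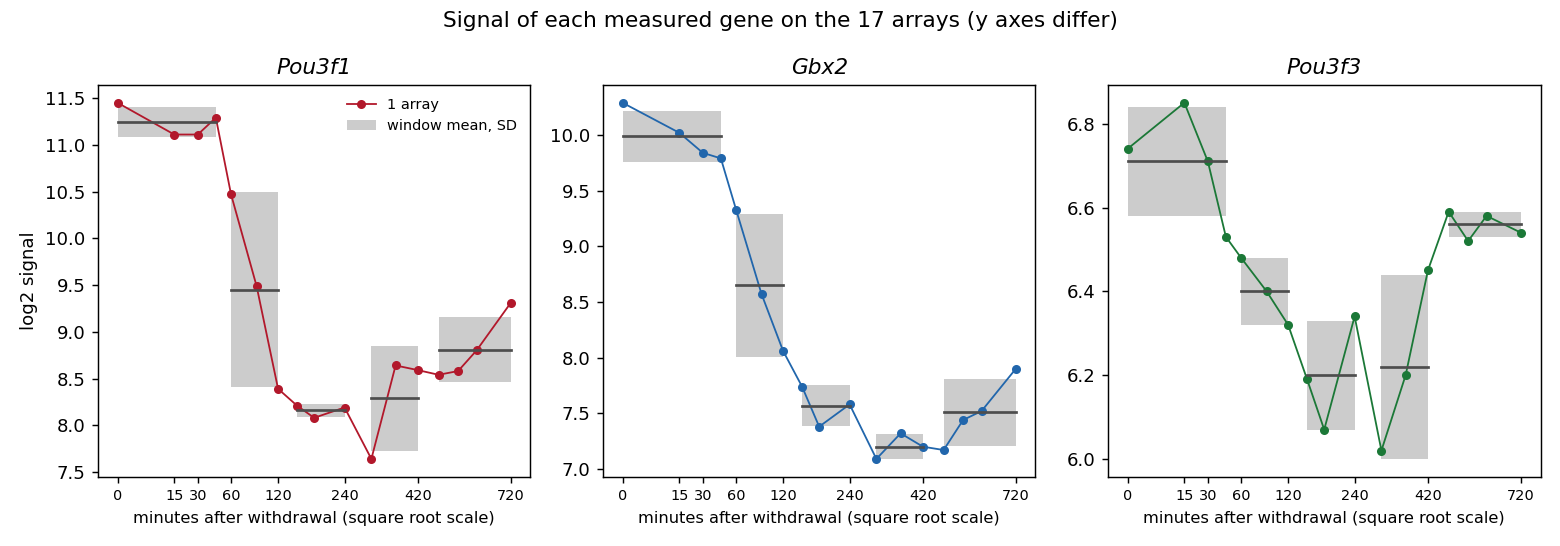
Log2 signal of Pou3f1, Gbx2 and Pou3f3 (y axes, which differ between panels) against minutes after growth factor withdrawal (x axis, square root scale), with 1 point per array, a dark line for the mean of each window and a grey band for its SD. Pou3f1 and Gbx2 drop between 45 and 180 min and stay low, while Pou3f3 spans only 6.02 to 6.85 and is back at 6.52 to 6.59 from 480 min on.

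By window, Pou3f1 averaged 11.24 ± 0.16 (SD, n = 4 times) at 0 to 45 min, 9.45 ± 1.04 (n = 3) at 60 to 120 min, 8.16 ± 0.07 (n = 3) at 150 to 240 min, 8.29 ± 0.56 (n = 3) at 300 to 420 min and 8.81 ± 0.35 (n = 4) at 480 to 720 min. In order of level the windows ran from 0 to 45 min down through 60 to 120, 480 to 720, 300 to 420 and 150 to 240 min. The arrays of the lowest pair in that order, 300 to 420 and 150 to 240 min, overlapped, as did those of 300 to 420 and 480 to 720 min and those of 480 to 720 and 60 to 120 min. The differences from 0 to 45 min were -1.79, -3.08, -2.95 and -2.43 on the log2 scale in order of time. These falls were placed 4, 2, 1 and 3 among 9940 features, and they are the values for which the gene was picked.

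Gbx2 went down over the same times as Pou3f1, with smaller drops between 45 and 120 min. It was at 10.29, 10.02, 9.84 and 9.79 at 0, 15, 30 and 45 min. It was at 9.33, 8.57 and 8.06 at 60, 90 and 120 min. It was at 7.74, 7.38 and 7.58 at 150, 180 and 240 min. All arrays from 60 min on lay below the 4 before them. Gbx2 was at 7.09, 7.32 and 7.20 at 300, 360 and 420 min. It was at 7.17, 7.44, 7.52 and 7.90 at 480, 540, 600 and 720 min. The lowest array was again at 300 min, 7.42-fold below the mean of 0 to 45 min, and the gene was still 4.24-fold below it at 720 min.

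The Gbx2 window means were 9.99 ± 0.23 (SD, n = 4 times) at 0 to 45 min, 8.65 ± 0.64 (n = 3) at 60 to 120 min, 7.57 ± 0.18 (n = 3) at 150 to 240 min, 7.20 ± 0.11 (n = 3) at 300 to 420 min and 7.51 ± 0.30 (n = 4) at 480 to 720 min. The top window and the 60 to 120 min window did not overlap each other or any lower window. The 3 lowest came in the order 150 to 240, 480 to 720 and 300 to 420 min. The arrays of 480 to 720 min overlapped those of both other windows, while those of 150 to 240 min, at 7.38 or more, lay above those of 300 to 420 min, at 7.32 or less. The differences from 0 to 45 min were -1.33, -2.42, -2.78 and -2.48 in order of time, placed 13, 5, 2 and 2 among 9940 features.

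Pou3f3 changed far less, on a probe close to the median of the array. It was at 6.74, 6.85, 6.71 and 6.53 at 0, 15, 30 and 45 min. It was at 6.48, 6.40 and 6.32 at 60, 90 and 120 min. It was at 6.19, 6.07 and 6.34 at 150, 180 and 240 min. The arrays at 60 to 240 min were all below those up to 45 min. Pou3f3 was at 6.02, 6.20 and 6.45 at 300, 360 and 420 min. It was at 6.59, 6.52, 6.58 and 6.54 at 480, 540, 600 and 720 min. The last 4 arrays overlapped the first 4, and the windows from 60 to 420 min did not overlap the first 4. Of all 9940 features, 7.42%, 14.2% and 21.2% had every array of such a window below the first 4, in order of time.

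Pou3f3 changed over the time course (largest departure of the fitted curve -0.66, limma adjusted p = 2.62e-05), as did 61.9% of all 9940 features. It fell in the 150 to 240 min window, at 6.20 ± 0.13 (SD, n = 3 times) against 6.71 ± 0.13 (n = 4) at 0 to 45 min (log2 difference -0.51, SE 0.10, limma adjusted p = 0.000499). In that comparison 10.5% of all features fell. It also fell in the 300 to 420 min window, at 6.22 ± 0.22 (n = 3), by 0.49 on the log2 scale (SE 0.10, limma adjusted p = 0.000331), where 20.2% of all features fell. At 60 to 120 min its mean was 6.40 ± 0.08 (n = 3) and the difference of -0.31 did not pass (limma adjusted p = 0.118), where 0.986% of features fell. At 480 to 720 min its mean was 6.56 ± 0.03 (n = 4) and the difference of -0.15 did not pass (limma adjusted p = 0.171), where 25.9% fell. The signal lay at percentile 50.8 of all probes, with no detection value to separate it from background. It passed the filter through its 0 to 45 and 480 to 720 min arrays, since its means in the other 3 windows lay below 6.41, and without the filter its fall at 150 to 240 min still passed (limma adjusted p = 0.000464). In order of level the windows ran 0 to 45, 480 to 720, 60 to 120, 300 to 420 and 150 to 240 min, and the arrays of neighbouring windows in that order overlapped except for 480 to 720 min over 60 to 120 min.

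The fourth class III POU gene, Pou3f4 (Brn4), also a factor of the developing nervous system and inner ear, lay below the filter with values between 5.83 and 6.35. In the fit without the filter, in which 32.6% of 19854 features changed over the time course, it did not pass (limma adjusted p = 0.27), and its 4 window differences lay between -0.05 and 0.07. Gbx1, the other member of the Gbx family, was between 5.61 and 5.97 and did not pass either (limma adjusted p = 0.594). In the window fits without the filter, 1.07%, 9.07%, 19.2% and 27.4% of the features passed in either direction in order of time, against 2.13%, 19.3%, 39% and 52.6% with it.

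The 3 measured genes were compared in the timing of their fall. The midpoint between the mean of 0 to 45 min and the lowest array, read by straight lines between neighbouring arrays, came at 91.3 min for Pou3f1, 91.7 min for Gbx2 and 103 min for Pou3f3. Among the 68 features that dropped by 2 or more on the log2 scale from the mean of 0 to 45 min to their lowest array, the median midpoint was 179 min (quartiles 131 and 283 min). Pou3f1 and Gbx2 are among those 68. By 720 min Pou3f1 had regained 46.4% of its log2 fall, Gbx2 27.9% and Pou3f3 76.2%, while the median of the 68 features was 16.1% (quartiles 1.37% and 37.3%).

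All 3 genes were lowest on the 300 min array, on which their midpoints and regained shares therefore rest. That array held the lowest value of 605 of the 9940 features (6.09%), of 289 of the 2008 features that fell in the 300 to 420 min window (14.4%) and of 12 of the 68 features with the deep falls (17.6%). Without it, the lowest values were 8.08 at 180 min for Pou3f1, 7.17 at 480 min for Gbx2 and 6.07 at 180 min for Pou3f3. The difference of the 300 to 420 min window without this array was -2.62 for Pou3f1, -2.73 for Gbx2 and -0.39 for Pou3f3 (limma adjusted p = 0.00543).

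The plot of their changes against each other sets Pou3f1 beside Gbx2 on each array. Over the 17 arrays their log2 signals had a Pearson correlation of 0.960 and a Spearman correlation of 0.779, and the 16 steps from 1 time to the next had a Pearson correlation of 0.866. The arrays share 1 series of cultures and the same time trend, so these are descriptions with no test. By steps, Pou3f1 was the gene most like Gbx2 among 9206 other named features, and Gbx2 came in place 2 for Pou3f1. By Pearson correlation of the signals the places were 8 and 5, and by Spearman correlation 464 and 143. Pou3f3 had a correlation of 0.768 with Pou3f1 and 0.668 with Gbx2 over the 17 arrays, and of 0.376 and 0.463 by steps.

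**Figure D2:**
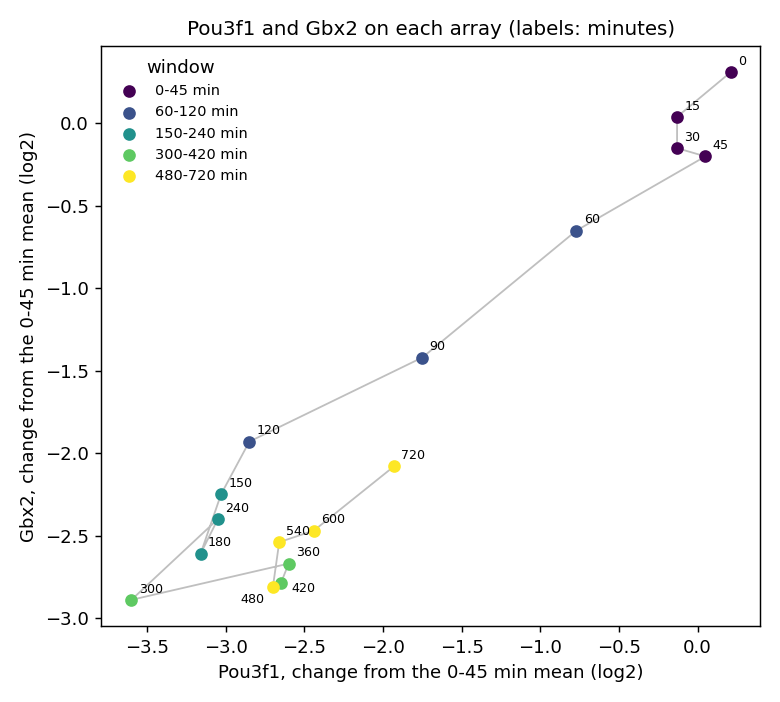
Change of Gbx2 (y axis) against change of Pou3f1 (x axis) from their means at 0 to 45 min, both in log2, with 1 point per array labelled by minutes, coloured by window and joined in order of time. Both genes go down together to 180 min, the 300 min array is the lowest for each, and the arrays from 480 to 720 min return part of the way, up to -1.93 for Pou3f1 and -2.08 for Gbx2.

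The 5 named genes most like Pou3f1 by Pearson correlation over the 17 arrays were Irf2bpl (0.985), Iffo2 (0.980), the MAP kinase phosphatase gene Dusp4 (0.977), the deubiquitinase gene Stambpl1 (0.969) and Gbx2 itself (0.960). Irf2bpl went with Pou3f1 also in its lowest array, with a mean of 11.71 at 0 to 45 min, 8.84 at 300 min and 10.47 at 720 min. Those most like Gbx2 were Stambpl1 (0.980), Hbegf, which encodes a ligand of the EGF receptor (0.977), the microtubule-associated gene Map9 (0.972), the amino acid transporter gene Slc43a1 (0.967) and Dusp4 (0.963). Hbegf averaged 9.22 at 0 to 45 min, was lowest at 6.90 at 180 min and was at 7.64 at 720 min. For Pou3f3 the highest correlations were lower, with Csk, the kinase that restrains Src (0.891), Lypla2 (0.877), Frmd4a (0.876), the WNT feedback gene Axin2 (0.868) and the anti-apoptotic gene Mcl1 (0.858). These lists depend on the measure: by Spearman correlation 2 of the 5 were again among the 5 most like Pou3f1, 2 for Pou3f3 and 0 for Gbx2.

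The differences of Pou3f1 and Gbx2 are set beside those of other homeobox genes as a description, since both were picked for their falls and their place below the others follows from that choice. With the members set aside, 37 homeobox genes from the lists were above the filter, and 0 of them were lower by 1 or more on the log2 scale in any of the 4 windows. Their lowest differences were -0.32 for En1 at 60 to 120 min, -0.59 for En1 at 150 to 240 min, -0.88 for Lhx2 at 300 to 420 min and -0.72 for En2 at 480 to 720 min. Their medians were 0.06, 0.12, 0.08 and 0.08 in order of time, beside medians of -0.002, 0.004, 0.003 and -0.002 over all features. Among the 30 homeobox genes outside the POU and midbrain-hindbrain lists, 12 rose and 6 fell at 480 to 720 min, where 26.7% of all features rose and 25.9% fell. Meis2, a TALE-class cofactor, rose by 1.29 (SE 0.15, limma adjusted p = 1.7e-07), and Prox1, a marker of granule neurons, rose by 1.05 (limma adjusted p = 6.06e-06). Tgif1 rose by 0.95 (limma adjusted p = 4.13e-06) and Zfhx2 by 0.85 (limma adjusted p = 3.19e-08). At 150 to 240 min the list held 6 rises and 5 falls, where 8.85% of all features rose and 10.5% fell, with Prox1 at 1.11, Meis2 at 1.04, the EMT-linked repressor gene Zeb2 at 1.00 and Tgif1 at 0.85 (limma adjusted p from 3.46e-05 to 0.000178). At 300 to 420 min 8 rose and 6 fell, where 18.8% of all features rose and 20.2% fell. The counts of falls in the last 2 windows are near the background. At 60 to 120 min 1 (Tgif1) rose and 0 fell in the limma test, with 29 that did not pass, where 1.15% of all features rose.

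**Figure D3:**
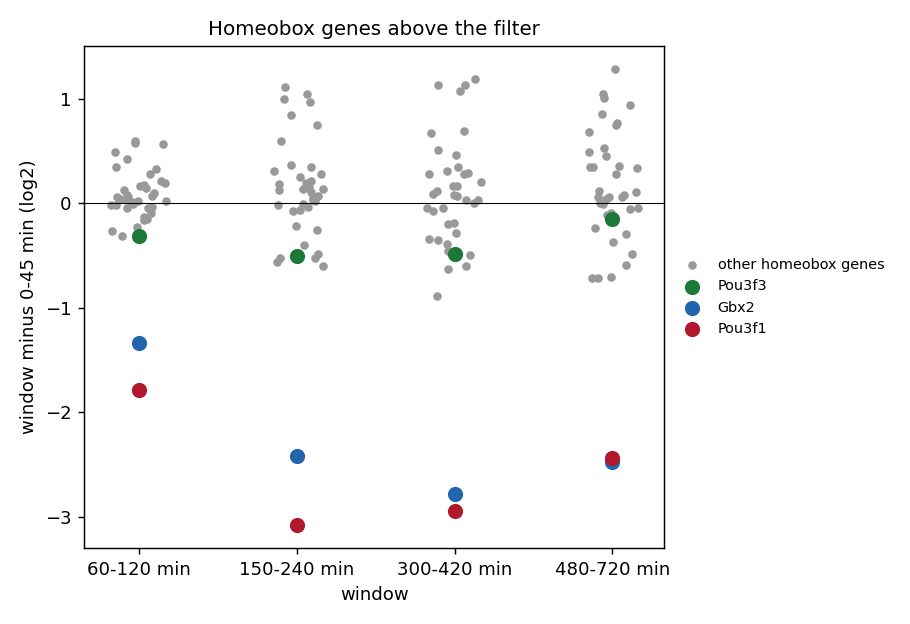
Difference of each later window from 0 to 45 min in log2 (y axis) for 40 homeobox genes above the filter, by window (x axis), with 1 grey point per gene and larger points for Pou3f3, Gbx2 and Pou3f1. Pou3f1 and Gbx2, which were picked for these falls, lie below the other genes by that choice, and Pou3f3 lies between -0.51 and -0.15.

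Of the 3 other POU genes above the filter, 0, 2, 2 and 2 rose and 0 fell in order of time in the limma test. Of all features, 1.15%, 8.85%, 18.8% and 26.7% rose and 0.986%, 10.5%, 20.2% and 25.9% fell, and 3 genes are too few to set against these shares. Of 11 listed, 8 were on the array and 3 were above the filter, Pou2f1 (Oct1), a widely expressed octamer-binding factor, Pou4f1 (Brn3a), a factor of sensory neurons, and Pou6f1. Pou2f1 rose at 150 to 240 min, to 8.89 ± 0.21 (SD, n = 3 times) against 7.93 ± 0.15 (n = 4) at 0 to 45 min (log2 difference 0.97, SE 0.14, limma adjusted p = 1.53e-05), and was at 7.97 ± 0.08 (n = 4) at 480 to 720 min. In the last window its difference of 0.04 did not pass (limma adjusted p = 0.81). The list's medians were 0.33, 0.59, 0.31 and 0.53. Pou6f1 rose at 480 to 720 min, to 9.30 ± 0.13 (n = 4) against 8.29 ± 0.21 (n = 4) (difference 1.01, limma adjusted p = 2.11e-07), and Pou4f1 to 8.36 ± 0.29 against 7.82 ± 0.02 (difference 0.53, limma adjusted p = 0.000411). The other 5, among them the pluripotency factor Pou5f1, were below the filter, and 0 of them passed in any window in the limma fit without it.

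Of 12 further genes of the Gbx family and the midbrain-hindbrain boundary, 8 were below the filter, among them Otx2, Pax2, Wnt1 and Fgf8, and 0 of these passed in any window of the limma fit without it. Of the 4 above it, with medians of 0.09, 0.04, -0.21 and 0.03 in order of time, 0, 1, 2 and 1 fell and 0 rose in the limma test. Of all features 0.986%, 10.5%, 20.2% and 25.9% fell, so that 1 of 4 in the last window is near the background. En1, an engrailed homeobox gene, fell at 150 to 240 min, to 6.49 ± 0.08 (SD, n = 3 times) against 7.08 ± 0.11 (n = 4) at 0 to 45 min (difference -0.59, SE 0.12, limma adjusted p = 0.000769). It was at 7.15 ± 0.22 (n = 4) at 480 to 720 min. En2 fell at 300 to 420 min (-0.63, limma adjusted p = 0.00271) and at 480 to 720 min (-0.72, limma adjusted p = 0.000236), with 7.78 ± 0.16 (n = 4) in the last window against 8.50 ± 0.19 (n = 4). Otx1 was 0.57 above its early mean at 60 to 120 min and did not pass (limma adjusted p = 0.0504), and Lmx1b had differences of 0.00 to 0.03.

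Of 9 listed partners of class III POU factors, most of them SOX factors, 7 were on the array and 5 above the filter. In order of time 1, 2, 2 and 3 rose and 0, 0, 0 and 1 fell, with medians of -0.08, 0.19, 0.21 and 0.51. Of all features, 1.15%, 8.85%, 18.8% and 26.7% rose and 0.986%, 10.5%, 20.2% and 25.9% fell. Sox4 rose in all 4 windows, up to 12.18 ± 0.26 (SD, n = 4 times) at 480 to 720 min against 10.08 ± 0.19 (n = 4) at 0 to 45 min (difference 2.10, limma adjusted p = 4.33e-11). Sox2, which binds with POU factors in progenitors, rose from 150 min on (0.52, 0.74 and 0.74, limma adjusted p from 2.96e-05 to 0.00794). Sox3 rose in the last window (0.51, limma adjusted p = 0.000548), where Sox11 fell (-0.55, limma adjusted p = 2.43e-05). Sox1 and Sox10 were below the filter, and Myt1l, used with Pou3f2 to convert fibroblasts to neurons, did not pass in any window.

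Of 6 genes reported as class III POU targets, 4 were above the filter, with 1 rise in each window, 1, 1, 2 and 3 falls in order of time, and medians of 0.17, -0.05, -0.58 and -0.59. Of all features 0.986%, 10.5%, 20.2% and 25.9% fell, and 1.15%, 8.85%, 18.8% and 26.7% rose. In the last 2 windows 1 rise in 4 is near the background. A link between Pou3f1 and the listed targets was not tested. Nes, the intermediate filament gene of neural progenitors, differed by -0.08 at 150 to 240 min (limma adjusted p = 0.671). In that window Pou3f1 was 8.46-fold lower than at 0 to 45 min. Nes fell in the last 2 windows, by 0.77 (limma adjusted p = 4.25e-06) and by 0.86 (limma adjusted p = 1.49e-07). The Notch ligand gene Dll1 rose in all 4 windows, to 9.64 ± 0.11 (SD, n = 3 times) at 150 to 240 min against 8.19 ± 0.10 (n = 4) at 0 to 45 min (difference 1.46, limma adjusted p = 4.46e-07). Egr2, which acts after Pou3f1 in Schwann cells, fell in all 4, to 6.85 ± 0.30 (n = 3) at 150 to 240 min against 8.25 ± 0.09 (n = 4) (difference -1.40, limma adjusted p = 5.04e-07). The midpoint of Egr2, at 75.4 min, came before that of Pou3f1, at 91.3 min. The lipid-binding protein gene Fabp7 fell at 480 to 720 min (-0.40, limma adjusted p = 0.0423). Crh and Mitf were below the filter and did not pass without it.

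Genes known to respond to FGF and ERK signalling fell in most cases. Of 14 listed, 11 were on the array and 8 above the filter. At 60 to 120 min 4 fell and 0 rose (median difference -0.74), at 150 to 240 min 7 fell and 0 rose (-1.44), at 300 to 420 min 6 fell and 1 rose (-1.58) and at 480 to 720 min 6 fell and 2 rose (-1.46). Of all features, 0.986%, 10.5%, 20.2% and 25.9% fell and 1.15%, 8.85%, 18.8% and 26.7% rose in these windows. Spry4, counted as a fall in each window, passed the filter through its 0 to 45 min arrays (mean 7.55). Its later window means, 6.15 to 6.39, lay below 6.41, so its midpoint and regained share rest on dim values. The midpoints of Spry4, Egr1 and Dusp6 came at 53.9, 54.2 and 57.3 min, before those of Pou3f1 (91.3 min) and Gbx2 (91.7 min). Dusp4 was close to both members at 95.2 min. Il17rd at 123 min, and the ETS factor genes Etv5 at 169 min and Etv4 at 282 min, came later. By 720 min Pou3f1 had regained 46.4% and Gbx2 27.9% of their falls, against 66.6% for Egr1, 63.9% for Etv5, 62% for Dusp6, 41% for Spry4, 18.4% for Dusp4 and 6.63% for Etv4, while Il17rd ended above its early mean. Dusp6 and Egr1 were lowest at 120 min. Etv5 was lowest on the same 300 min array as the members, at 8.05. Its change from the 0 to 45 min mean was -1.795 at 240 min, -2.664 at 300 min and -1.193 at 360 min. Midpoints and regained shares are measured from 1 lowest array per gene, so those of Etv5 and the members rest on the 300 min array.

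In the 150 to 240 min and 480 to 720 min windows the largest differences in this list were in Dusp6, a phosphatase that switches off ERK, with -3.15 (SE 0.34, limma adjusted p = 3.48e-07) at 150 to 240 min and -2.43 (SE 0.31, limma adjusted p = 7.7e-07) at 480 to 720 min. Dusp4 was at -2.27 (limma adjusted p = 1.66e-08) and -1.97 (limma adjusted p = 2.25e-09) in these windows, and the immediate early gene Egr1 at -2.22 and -1.64 (limma adjusted p = 3.44e-07 and 1.3e-06). Etv5 was at -1.45 (limma adjusted p = 0.000107) at 150 to 240 min, and Etv4 at -2.24 (limma adjusted p = 5.5e-12) at 480 to 720 min. The receptor-like inhibitor gene Il17rd fell by 1.43 at 150 to 240 min (limma adjusted p = 2.36e-05) and rose by 0.53 at 480 to 720 min (limma adjusted p = 0.0267), and Etv1 rose by 0.54 there (limma adjusted p = 0.00106).

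**Figure D4:**
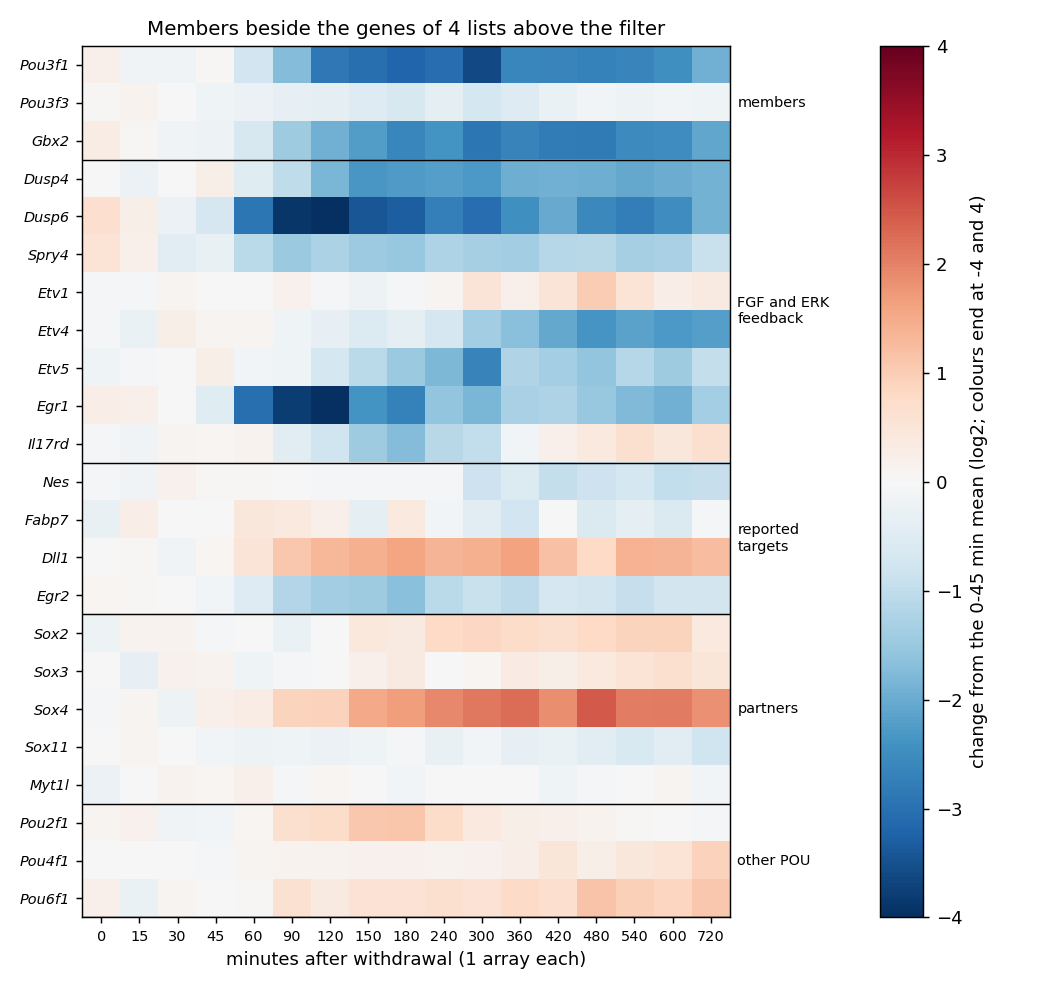
Change of log2 signal from the mean of 0 to 45 min (colour, which ends at -4 and 4, so that Dusp6 and Egr1 at 120 min pass its lower end) for the 3 measured members and the genes above the filter in 4 lists (rows), at each of the 17 times (columns, 1 array each). Pou3f1 and Gbx2 darken from 60 to 180 min, after Dusp6 and Egr1 and before Etv4, while Sox4 and Dll1 rise over the same times.

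Pou3f1 marks several glial and neuronal lineages, so the levels of marker lists are given beside its fall. The mean log2 signal of the 10 oligodendrocyte lineage markers on the array was 7.45 to 7.48 at 0 to 45 min, 7.27 to 7.38 at 60 to 120 min, 7.34 to 7.66 at 150 to 240 min, 7.78 to 7.94 at 300 to 420 min and 7.97 to 8.12 at 480 to 720 min. Within that list, with 6 genes above the filter, Olig2 fell at 60 to 120 min (-1.43, limma adjusted p = 0.00671). At 150 to 240 min Olig2 (-1.54, limma adjusted p = 0.00035) and Olig1 (-0.39, limma adjusted p = 0.0104) fell. Pdgfra, Mbp and Cnp rose there (0.75, 0.42 and 0.62, limma adjusted p from 0.00035 to 0.0185). Of all features, 0.986% fell at 60 to 120 min, and 10.5% fell and 8.85% rose at 150 to 240 min. At 480 to 720 min Pdgfra, Cspg4, Mbp and Cnp rose, Cnp by 2.34 (limma adjusted p = 1.27e-10), where 26.7% of all features rose. The differences of Olig1 and Olig2 did not pass there. Sox10, Mog, Mag and Enpp6 were below the filter. In the fit without it Enpp6 rose at 300 to 420 min (0.62, limma adjusted p = 4.79e-06) and at 480 to 720 min (0.51, limma adjusted p = 1.54e-05). Sox10, Mog and Mag did not pass in any window of that fit. The 3 Schwann cell markers on the array were at 7.51 to 7.74 at 480 to 720 min, against 8.18 to 8.44 at 0 to 45 min, with Egr2 and Pmp22 lower. The 12 progenitor markers were at 9.34 to 9.38 at 480 to 720 min, against 9.16 to 9.31 at 0 to 45 min. This mean covers changes both ways. Of the 9 above the filter, 4 rose at 480 to 720 min in the limma test (Sox2, Vim, Hes5 and Gfap) and 4 fell (Nes, Fabp7, Tnc and Slc1a3). Their median difference was -0.06, and 26.7% of all features rose and 25.9% fell in that window. Gfap, at 6.34 at 0 to 45 min, passed the filter through later windows. The 6 astrocyte markers were at 7.71 to 8.11 at 480 to 720 min, against 7.37 to 7.43 at 0 to 45 min. They did not all rise. Of the 4 above the filter, S100b rose at 480 to 720 min (2.20, limma adjusted p = 6.52e-11), Slc1a2 fell and 2 did not pass. The median difference of these 4 was 0.05. S100b passed the filter through later windows, with a mean of 6.33 at 0 to 45 min. In the fit without the filter Aqp4 rose at 480 to 720 min (0.81, limma adjusted p = 2.16e-07) and Gja1 did not pass (limma adjusted p = 0.592). In that fit 27.4% of features passed in either direction. The 7 endothelial and mural markers were at 6.36 to 6.59 at 480 to 720 min, against 6.73 to 6.87 at 0 to 45 min. The part of these changes in the signals of Pou3f1, Gbx2 and Pou3f3 was not tested.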

How the data were processed

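The deposited table held values on a log2 scale, read from their range since the labels name no unit, for 19949 probes on 17 arrays. Per the labels' protocols, RNA was amplified and biotin-labelled with an Illumina TotalPrep kit. The scanner software, background correction and normalization used by the authors are not stated in the labels. Sorted values differed between arrays by at most 0.135 at 1 rank, so no scaling was added. Symbols came from the platform annotation, updated through the RefSeq gene table of GRCm38.p6 by gene ID (16482 probes) or accession (956 probes), with 913 kept and 1598 probes unnamed. For a gene with several probes, the brightest on average was taken. The features with a mean of at least 6.41 (9940, of which 9207 were named) were tested with limma 3.58.1 in R 4.3.3, by contrasts of 5 windows and by a 4-parameter natural spline of square-root minutes (moderated F), with an intensity trend and Benjamini-Hochberg adjusted p under 0.05. Genes below the filter were read from the same fits over 19854 features. The procedure was tested on simulated data. The first window ends at 45 min because earlier results of these data showed the 60 min array already changed.

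The members, windows and gene lists were chosen with earlier results of these data known. Named genes were the members, the 5 genes most like each, the members of the POU, Gbx, partner and target lists by value or count, the 4 largest changes at 150 to 240 and 480 to 720 min in the FGF and homeobox lists, and up to 3 markers a list. Genes named beyond these, such as further FGF genes and markers, Lhx2 and other extremes of a list, were chosen after their values were seen. Protein sequences were not used here, so the planned comparison of protein stretches was not made. The number of arrays limits the precision. Alternatives changed the filter, scaling, choice of probe, variance trend, weighting of arrays, shape of the curve, baseline and likeness measure, or left out each array in turn.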

Additional observations from a re-analysis of the deposited data

Results flagged for a closer look

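Of 54 sets of values tested in windows of 4 arrays, for the genes above the filter in 6 lists, members included, 1 held an array far from the others. Egr2 was at 7.34 at 540 min, against 7.50 to 7.52 on the other 3 arrays of 480 to 720 min. Chance alone marks about 1 such set in 20. No value of Pou3f1, Gbx2 or Pou3f3 stood apart in this way within 0 to 45 min or 480 to 720 min, and windows of 3 arrays were not tested.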

How the results depend on the processing

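The window differences of the members were recomputed under alternatives, and many could not move. A difference stays as it was when an array outside the windows compared is left out, or when the filter or variance trend changes. Only the adjusted p of Pou3f3 can then move. Of 296 differences, fixed ones included, 0 reversed. Of these, 293 kept their direction and their side of the threshold or moved by less than the spread within windows. The other 3 were in the 60 to 120 min window, in which 212 features passed, against 494 with array weights and 321 with a baseline of 0 to 60 min. With 1 array left out, 61 to 353 passed, namely 139 without 0 min, 353 without 60 min, 85 without 90 min and 61 without 120 min. In the same window the difference of Pou3f1 (-1.79) ran from -2.30 without 60 min to -1.26 without 120 min, and that of Gbx2 (-1.33) from -1.67 to -1.03. Pou3f3 at 60 to 120 min was at -0.30 with array weights (limma adjusted p = 0.0436), and its adjusted p ran from 0.0436 to 0.497 over 24 alternatives, past the threshold in 1. Its falls at 150 to 240 and 300 to 420 min passed in 24 of 24 (highest limma adjusted p = 0.00747 and 0.00543). Of the 5 genes most like each member by Pearson correlation, 3 for Pou3f1, 0 for Pou3f3 and 0 for Gbx2 were again among the 5 by steps. The cause of these moves was not tested. Pou3f3 lies below the stricter filter at the 60th percentile and has no value there. Averaging all probes of a gene left the members' differences as they were, since each has 1 probe. No paired analysis was possible because there was 1 array per time and the labels give no replicate number. Without detection values, a dim probe such as that of Pou3f3 cannot be separated from background.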

Other observations

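The steps between neighbouring arrays show where the members moved. Pou3f1 dropped by 0.82 from 45 to 60 min, by 0.98 from 60 to 90 min and by 1.10 from 90 to 120 min. Gbx2 dropped by 0.46, 0.76 and 0.51 over the same steps, and by a further 0.32 and 0.36 up to 180 min. From 240 to 300 min Pou3f1 dropped by 0.55 and Gbx2 dropped by 0.49, and Pou3f1 then went up by 1.00 to 360 min while Gbx2 went up by 0.22. Over the last step, from 600 to 720 min, Pou3f1 went up by 0.51 and Gbx2 by 0.38, and 99% and 96.6% of all features had a lower step. Between 0 and 45 min the steps of Gbx2 were -0.27, -0.19 and -0.05, and those of Pou3f1 were -0.35, 0.01 and 0.17. With 1 array per time, single steps have no test.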
